A study of Mus musculus with 40 samples.

Results

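Haemoglobin transcripts were followed through choroid and retina by the 4 adult globin genes of the mouse, Hba-a1, Hba-a2, Hbb-bs and Hbb-bt, and by Alas2, the erythroid enzyme of haem synthesis. They were chosen by name as a measure of blood content, and all 5 were found among the 54307 genes of the deposited table. Values are normalized counts per gene.

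Choroidal neovascularization (CNV) was induced by laser with 6 spots per eye, and RNA was sequenced from choroid and retina of the same 20 mice, giving 40 libraries. Per the study's methods the mice, of both sexes, were on a C57BL/6J background, were 6 to 7 weeks old at tamoxifen and were killed 3 days after the laser. Each tissue held 4 groups of 5 mice, control – PLX, Tgfbr2ΔEC – PLX, control + PLX and Tgfbr2ΔEC + PLX. All mice carried floxed Tgfbr2 alleles and all received tamoxifen, and the Tgfbr2ΔEC mice (CrePos) also carried a tamoxifen-inducible Cre driven by the endothelial Cdh5 promoter, which the control littermates (CreNeg) lacked. The + PLX groups ate PLX5622, an inhibitor of the CSF1 receptor that depletes mononuclear phagocytes (MP), from the first tamoxifen dose to the end. All mice had been lasered, so an uninjured level is not given here. Choroids were cut to the central part with the lesions, and animals with subretinal bleeding were left out by the authors. A perfusion of the vessels is described for stained tissue, and for the sequenced tissue none is given in the sources used here. The mice are numbered 1 to 5 (control – PLX), 6 to 10 (Tgfbr2ΔEC – PLX), 11 to 15 (control + PLX) and 16 to 20 (Tgfbr2ΔEC + PLX).

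Haemoglobin is the oxygen carrier of the red blood cell and is built of alpha and beta globin chains that each hold a haem group. Adult mice make alpha globin from Hba-a1 and Hba-a2 and, on the C57BL/6 background, beta globin from Hbb-bs and Hbb-bt, and the embryonic globins are largely silent. Alas2 catalyses the first step of haem synthesis in red cell precursors, while Alas1 does so in other cells. Mature red cells have no nucleus, and their youngest stage, the reticulocyte, still holds globin and Alas2 messenger RNA, so bulk tissue that holds blood carries these transcripts.

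The globin genes came in near-identical pairs. Positions are given for GRCm39 with the GENCODE annotation. Hba-a1 (ENSMUSG00000069919) lies on the plus strand at chr11:32233186-32234504 and Hba-a2 (ENSMUSG00000069917) on the plus strand at chr11:32246168-32247320. Hbb-bs (ENSMUSG00000052305) lies on the minus strand at chr7:103475730-103482989 and Hbb-bt (ENSMUSG00000073940) on the minus strand at chr7:103461727-103465047. Alas2 (ENSMUSG00000025270) lies on the plus strand at chrX:149330371-149353634. The coding sequences of Hba-a1 and Hba-a2, 429 bases each, differed at 1 base, C381T, and those of Hbb-bs and Hbb-bt, 444 bases each, at 1 base, C417T, counted from the A of the start codon with the base of Hba-a1 or Hbb-bs first. Both changes kept the residue, so each pair encodes the same chain of 142 (alpha) or 147 (beta) residues. These 49-base stretches of exon 3 are shown because they hold the single coding difference of each pair, in capitals, read in the direction of the gene.
Hba-a1, chr11:32234319-32234367, plus strand: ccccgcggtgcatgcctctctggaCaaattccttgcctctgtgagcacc
Hba-a2, chr11:32247136-32247184, plus strand: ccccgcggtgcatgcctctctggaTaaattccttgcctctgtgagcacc
Hbb-bs, chr7:103475875-103475923, minus strand: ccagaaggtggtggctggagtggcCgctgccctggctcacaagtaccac
Hbb-bt, chr7:103461866-103461914, minus strand: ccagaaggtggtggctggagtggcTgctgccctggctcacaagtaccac
The reads were single and 50 bases long. Of all 50-base windows in a transcript, 548 of 689 (79.5%) in Hba-a1 and 548 of 598 (91.6%) in Hba-a2 occur in both, and 381 of 615 (62.0%) in Hbb-bs and 381 of 655 (58.2%) in Hbb-bt. Hba-a1 and Hbb-bs shared 0 windows. The split within a pair is therefore an estimate of the authors' quantification and is uncertain, while the alpha sum, the beta sum and Alas2 do not depend on it.

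The sequences before the starts are shown as a description, and a link between them and the values of the libraries was not tested. Each line gives 250 bases before the RefSeq start, taken on GRCm38.p6 and placed on GRCm39 by an exact match. The RefSeq start lies downstream of the start of the GENCODE transcript used for lengths, by 161 bases in Hba-a1, 96 in Hba-a2, 34 in Hbb-bs, 73 in Hbb-bt and 42 in Alas2, so each window runs past that start, and the spans of the 4 globin genes above also hold transcripts that begin farther upstream. The windows of Hba-a1 and Hba-a2 each matched chromosome 11 at 2 places, and the match nearest to its own gene was taken. Capitals mark the letters searched on either strand. For GATA sites the letters were AGATAA and TGATAA, and for boxes like TATA they were ATATAA and ATAAAA. The CACCC box and the CCAAT box were searched by the letters of their names.
Hba-a1, chr11:32233422-32233671, plus strand: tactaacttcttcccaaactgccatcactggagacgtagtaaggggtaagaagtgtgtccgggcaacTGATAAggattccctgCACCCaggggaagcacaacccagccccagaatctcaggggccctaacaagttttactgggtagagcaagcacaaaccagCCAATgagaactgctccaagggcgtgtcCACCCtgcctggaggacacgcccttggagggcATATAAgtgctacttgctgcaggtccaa
Hbb-bs, chr7:103477136-103477385, minus strand: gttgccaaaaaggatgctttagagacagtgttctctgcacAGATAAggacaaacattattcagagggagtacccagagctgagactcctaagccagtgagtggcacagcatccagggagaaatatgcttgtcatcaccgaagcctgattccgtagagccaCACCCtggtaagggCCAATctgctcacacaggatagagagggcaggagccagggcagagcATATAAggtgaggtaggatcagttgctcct
Hbb-bt, chr7:103463131-103463380, minus strand: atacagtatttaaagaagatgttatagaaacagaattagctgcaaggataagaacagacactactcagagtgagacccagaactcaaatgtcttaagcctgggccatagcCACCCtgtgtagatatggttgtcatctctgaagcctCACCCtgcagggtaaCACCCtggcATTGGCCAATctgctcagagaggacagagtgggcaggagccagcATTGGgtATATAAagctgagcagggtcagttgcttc
Alas2, chrX:149330163-149330412, plus strand: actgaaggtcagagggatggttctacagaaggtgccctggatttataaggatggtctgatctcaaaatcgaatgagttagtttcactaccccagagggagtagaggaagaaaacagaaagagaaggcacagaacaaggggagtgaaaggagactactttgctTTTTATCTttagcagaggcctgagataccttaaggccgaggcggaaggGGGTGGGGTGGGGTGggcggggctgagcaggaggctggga
The window of Hba-a2 (chr11:32246242-32246491, plus strand) is that of Hba-a1 shifted by 3 bases, with 247 of 247 aligned bases identical, and is not printed. Counted from the RefSeq start, a GATA site began at -183 in Hba-a1, at -210 in Hbb-bs and at -86 in Alas2, where it overlapped the TATA-like box at -88, and Hbb-bt held 0. CACCC boxes numbered 2 in Hba-a1, 1 in Hbb-bs, 3 in Hbb-bt and 3 in Alas2. CCAAT boxes numbered 1, 1, 3 and 0 in the same order, and each window held 1 TATA-like box. Among 32851 promoters of the same length, 16.6% held a GATA site, 52.0% a CACCC box, 33.8% a CCAAT box and 22.4% a TATA-like box, and the matches are given as a description.

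The values of a library summed to 24718469 to 25956180 in choroid and 22256892 to 24507335 in retina. From the steps between low values, a single read stood for 0.8975 to 1.1925 (choroid) or 0.7475 to 1.1225 (retina) normalized counts, and a gene at 3 reads or fewer was treated as being at the floor. This floor covers counting error only, since the reads carry no molecular identifiers. The tissues matched their labels. All 10 neural retina markers were lower in choroid, while 6 of 6 pigment epithelium, 6 of 7 endothelium and 10 of 10 phagocyte markers were higher there (limma, adjusted p at or under 0.05), in a comparison where 40.8% of all genes tested were called higher and 41.1% lower in choroid. The choroids still held neural retina transcripts in unequal amounts, and these values are given beside the diet comparison.

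Globin transcripts were scarce in both tissues and higher in choroid than in retina of the same mouse. The 4 globins together took 12.6 to 221 of every 1000000 counts of a choroid library, with a median of 48.3, and 0.553 to 29.1 of those of a retina library, with a median of 6.50. In bulk tissue, fewer cells of a type and less RNA per cell cannot be told apart. The globin sum was higher in choroid in 20 of 20 mice, by 2.33- to 126-fold with a median of 8.25-fold.

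**Figure D1:**
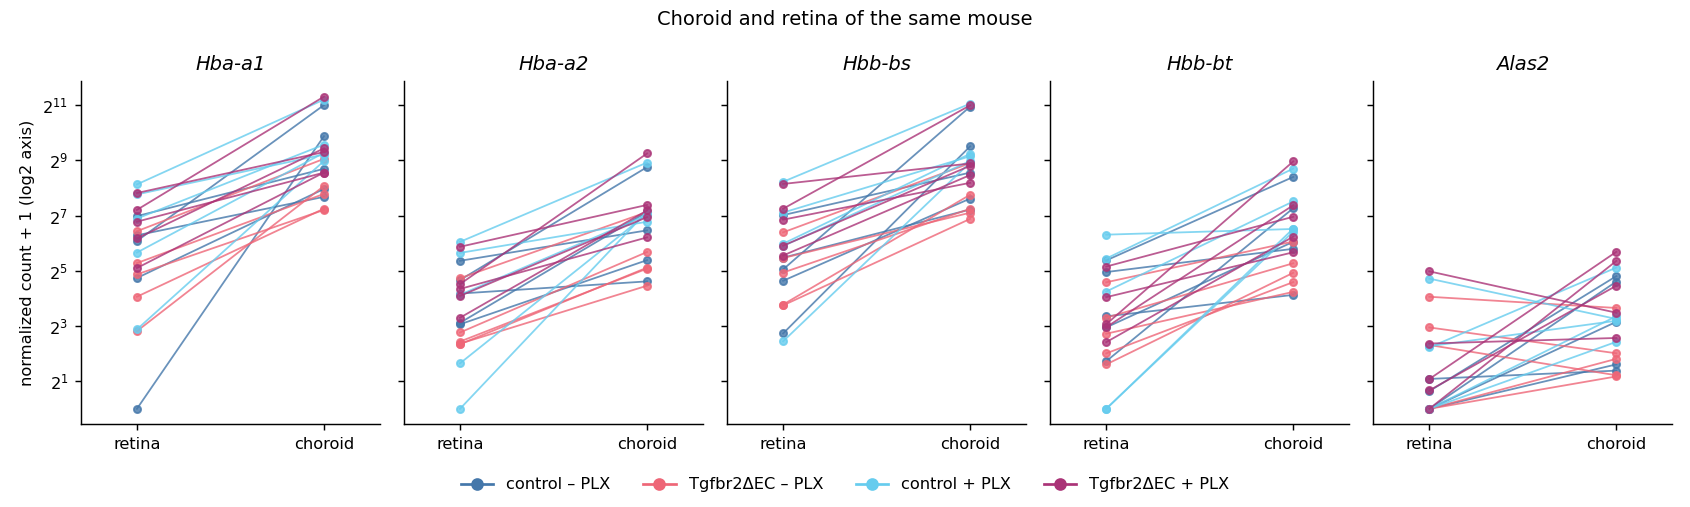
Normalized count + 1 (y axis, log2 scale) of each of the 5 genes, 1 panel per gene, in retina and choroid (x axis), with a line joining the tissues of each of the 20 mice, coloured by group. Every line of the 4 globins rises from retina to choroid, and for Alas2 15 of 20 do.

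Each globin was above its retina value in all 20 mice. The median ratio of choroid to retina was 8.44 for Hba-a1 (19 mice with a retina value above 0), 7.43 for Hba-a2 (19 mice), 7.62 for Hbb-bs (20 mice) and 7.98 for Hbb-bt (18 mice). Alas2 was higher in choroid in 15 of 20 mice, with a median ratio of 1.31 over the 12 mice with Alas2 above 0 in retina. In the fit across all genes (limma, log2(normalized count + 1)), the difference of choroid minus retina was 3.40 (SE 0.47) for Hba-a1, 2.96 (SE 0.42) for Hba-a2, 3.09 (SE 0.40) for Hbb-bs and 3.07 (SE 0.47) for Hbb-bt. It was 1.75 (SE 0.45) for Alas2. The limma adjusted p-values were 3.04e-08, 4.62e-08, 7.75e-09, 2.35e-07 and 0.000584 in the same order. All 5 genes were called, against 82% of the 24317 genes tested in either direction and 40.8% higher in choroid, so that most genes were called in this comparison. The median difference over the 5 genes was 3.07, beside -0.01 over all genes tested.

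Both tissues held the transcripts unevenly. In choroid, none of the globins was at the floor in any of the 20 libraries, and Alas2 was at or under 3 reads in 5. In retina, Alas2 was at or under 3 reads in 12 of 20 libraries, 8 of them at 0. Hbb-bt was there in 4 retinas, 2 at 0, Hba-a2 in 2, 1 at 0, Hba-a1 in 1 at 0, and Hbb-bs in 0.

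Within choroid the lesser copy of each pair held a minor share of its counts, as the quantification split them. Hba-a2 gave 10.3 to 24.5% of the alpha globin counts (16.8 ± 3.42, SD, n = 20) and Hbb-bt 10.01 to 26.998% of the beta globin counts (16.7 ± 4.62, SD, n = 20). Divided by transcript length, alpha globin stood at 0.987 to 1.28 of beta globin (1.13 ± 0.0996, SD, n = 20), while the globin sum itself ranged over 17.7-fold. The ratio depends on the lengths taken, and RefSeq lengths were not tried. The GENCODE transcripts used start upstream of RefSeq by 161 (Hba-a1), 96 (Hba-a2), 34 (Hbb-bs) and 73 (Hbb-bt) bases. In retina the same ratio was 0.613 to 1.77 (1.07 ± 0.298, SD, n = 20), and the shares within pairs ran from 0 to 100% (Hba-a2) and from 0 to 55.8% (Hbb-bt). The share of 100% came from the retina of mouse 5, where Hba-a1 was listed at 0 and Hba-a2 at 7.67.

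**Figure D2:**
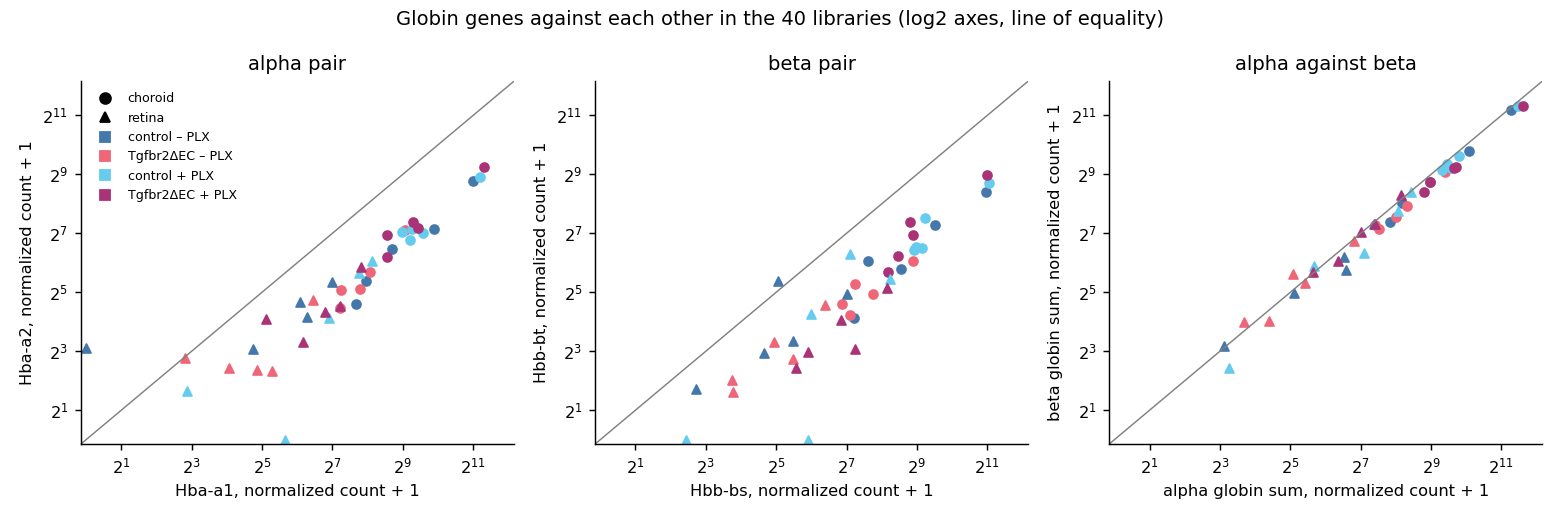
Hba-a2 against Hba-a1, Hbb-bt against Hbb-bs and the beta sum against the alpha sum (both axes normalized count + 1, log2 scale) in the 40 libraries, with circles for choroid, triangles for retina, colours for groups and a line of equality. In choroid the lesser copy lies below that line, at a share of 10.3 to 24.5% for Hba-a2 and 10.01 to 26.998% for Hbb-bt, and the retinas scatter more at lower counts.

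Across the 20 choroids the globins varied together, with Pearson r of 0.92 to 0.99 over the 6 pairs of genes on the log2 scale after group means were removed, given as a description because the genes share libraries and reads. Alas2 followed them less closely, with r of 0.67 to 0.77 over 4 pairs. In retina the values were 0.64 to 0.91 among globins and 0.46 to 0.56 with Alas2. Alas2 stood at a median of 0.611 per 100 globin counts in choroid. Mice 4 and 20 were apart from the rest at 4.26 and 4.32, and the other 18 choroids lay at 0.220 to 1.45.

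Hbb-bs, the major adult beta globin, was read at 1979, 376, 148, 196 and 729 normalized counts in the choroids of control mice 1 to 5 (– PLX). It was at 477, 151, 137, 117 and 215 in Tgfbr2ΔEC – PLX mice 6 to 10. The diet groups held 605, 504, 485, 568 and 2131 (control + PLX, mice 11 to 15) and 447, 473, 291, 2043 and 354 (Tgfbr2ΔEC + PLX, mice 16 to 20). Mice 1, 15 and 19 were far above their own groups, and mouse 6 led the lowest group. Of the 6 pairs of groups 1 did not overlap, Tgfbr2ΔEC – PLX (up to 477) and control + PLX (from 485), which differ in both genotype and diet. Of all genes tested, 3.62% did not overlap between these groups, 0.8% with control + PLX higher. The means were 686 ± 758, 219 ± 149, 859 ± 713 and 721 ± 742 (SD, n = 5 each), so that in the order control + PLX, Tgfbr2ΔEC + PLX, control – PLX and Tgfbr2ΔEC – PLX no neighbours differed beyond their spread.

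Hba-a1, the more abundant alpha globin, followed the same mice. It was at 2055, 414, 204, 249.2 and 940 in control – PLX choroids and at 532, 220, 147, 152 and 268 in Tgfbr2ΔEC – PLX choroids. With PLX it was at 760, 620, 504, 593 and 2359 in control and at 693, 631, 376, 2541 and 377 in Tgfbr2ΔEC mice. The 4 lowest Tgfbr2ΔEC – PLX values lay under all 5 Tgfbr2ΔEC + PLX values, and mouse 6 lay within them.

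Hba-a2, the lesser alpha copy, was at 432, 87.4, 23.5, 40.8 and 139 in control – PLX and at 139, 33.7, 21.02, 32.8 and 50.4 in Tgfbr2ΔEC – PLX choroids. With PLX the values were 129, 141, 132, 109 and 484 in control and 145, 166.5, 73.1, 609 and 122 in Tgfbr2ΔEC mice. The pattern of high libraries was that of Hba-a1, and the groups overlapped. Hbb-bt, the lesser beta copy, was at 337, 54.6, 16.5, 65.4 and 153 in control – PLX and at 65.8, 37.7, 17.9, 23.1 and 29.5 in Tgfbr2ΔEC – PLX choroids. It was at 182, 91.4, 84.6, 90.6 and 416 in control + PLX and at 165, 123, 50.01, 498 and 74.5 in Tgfbr2ΔEC + PLX choroids. Mice 1, 15 and 19 were again the highest of their groups, and Tgfbr2ΔEC – PLX and control + PLX again did not overlap (3.62% of genes, as above), while the other 5 pairs of groups did.

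Alas2, the marker of young red cells, was low throughout. It was at 27.02, 2.05, 1.61, 23.5 and 7.90 in control – PLX and at 11.6, 3.03, 1.25, 1.32 and 2.51 in Tgfbr2ΔEC – PLX choroids. With PLX it was at 9.22, 8.12, 4.38, 8.55 and 33.7 in control and at 21.02, 10.2, 4.93, 50.6 and 40.04 in Tgfbr2ΔEC mice. The means were 12.4 ± 12.04, 3.94 ± 4.34, 12.8 ± 11.8 and 25.3 ± 19.5 (SD, n = 5 each). Mice 4 and 20, with globin sums below the median of the choroids, were high for Alas2.

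**Figure D3:**
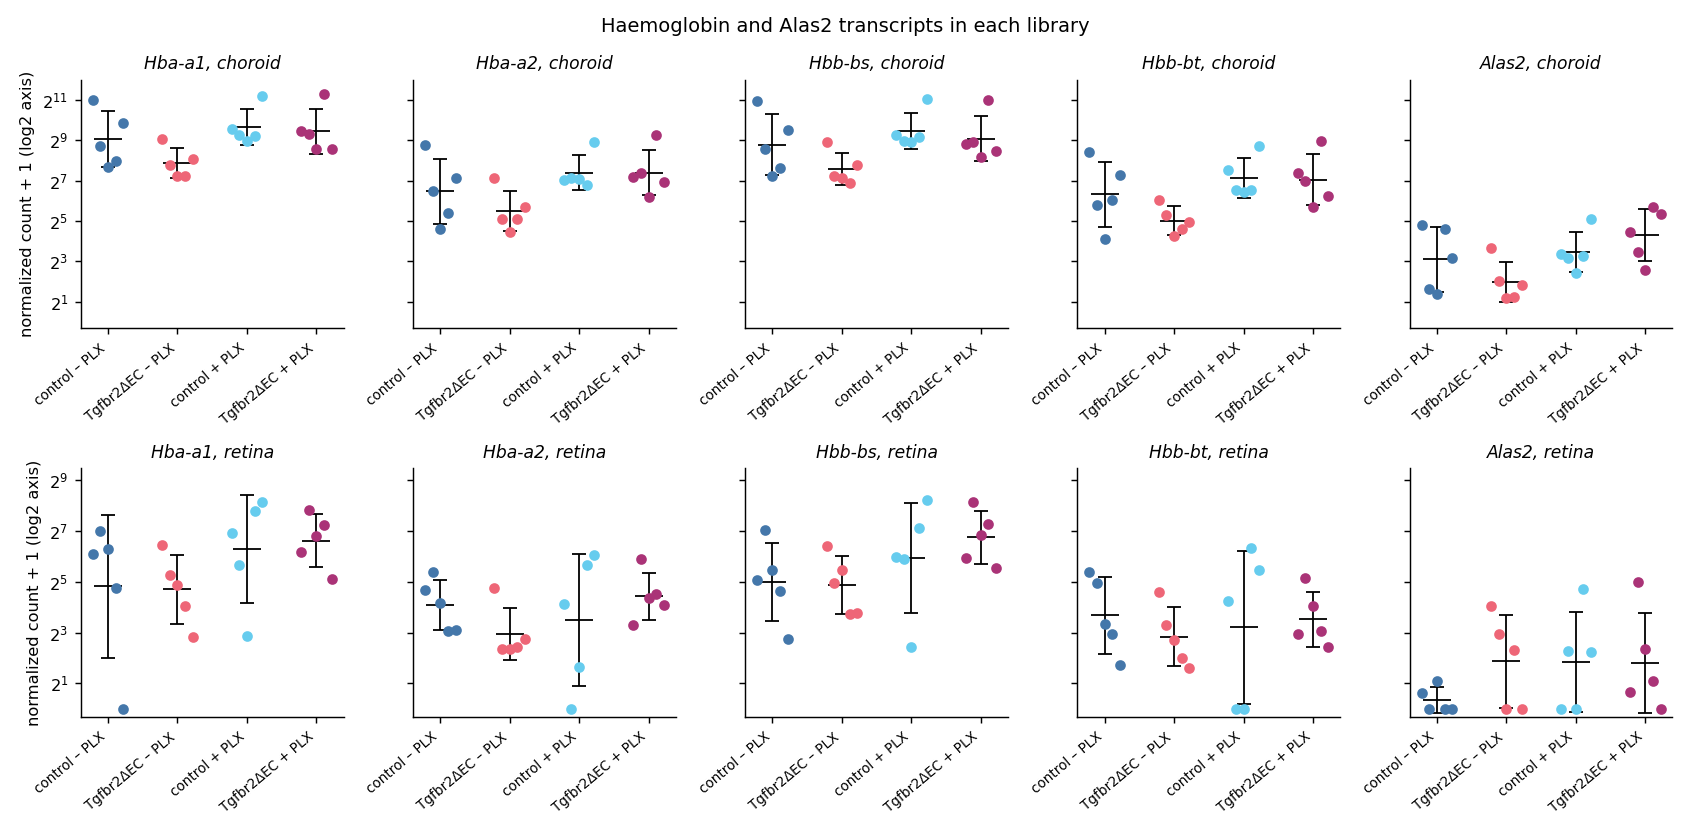
Normalized count + 1 (y axis, log2 scale) of the 5 genes by group (x axis), choroid in the upper row and retina in the lower, with points for mice and bars for the mean ± SD of the log2 values (n = 5). The rows have different y ranges, Hbb-bs for instance lying at 117 to 2131 in choroid and 4.45 to 299 in retina, and mice 1, 6, 15 and 19 stand at the top of their choroid groups.

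The diet comparison addressed whether depletion of MP changed the blood transcripts. In choroid, all 5 genes were on average higher with PLX in both genotypes, and none passed the test across all genes. Over both genotypes the log2 difference of + PLX minus – PLX was 1.08 (SE 0.43) for Hba-a1, 1.41 (SE 0.48) for Hba-a2, 1.095 (SE 0.45) for Hbb-bs, 1.42 (SE 0.48) for Hbb-bt and 1.35 (SE 0.53) for Alas2. The limma adjusted p-values were 0.154, 0.0873, 0.170, 0.0868 and 0.148 in the same order. So 0 of 5 were called, against 7.13% of the 23619 genes tested, and 5 of 5 were higher at an unadjusted p under 0.05, against 8.34% of genes. Exact two-sided permutation tests over the diet labels within genotype gave p of 0.0367, 0.0166, 0.0404, 0.0165 and 0.0384, unadjusted, where the smallest p that this design allows is 3.15e-05. The 5 genes move together and are not independent tests of the diet. The median difference over the 5 genes was 1.35, beside 0.00 over all genes.

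Leaving out single mice changed this count. Without mouse 1, the highest control – PLX choroid, 4 of 5 genes were called (the globins), against 6.44% of genes in that fit, and without mouse 6, the highest Tgfbr2ΔEC – PLX choroid, 1 of 5, against 5.97%. Without any of the other 18 mice the count stayed at 0.

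Within genotypes, the estimate was larger in Tgfbr2ΔEC than in control mice. In Tgfbr2ΔEC mice the log2 difference by diet was 1.56 (95% interval 0.30 to 2.82) for Hba-a1, 1.90 (0.49 to 3.32) for Hba-a2, 1.49 (0.18 to 2.81) for Hbb-bs, 2.02 (0.60 to 3.44) for Hbb-bt and 2.34 (0.78 to 3.89) for Alas2. The limma adjusted p-values were 0.183, 0.138, 0.239, 0.111 and 0.0886, so 0 of 5 were called, against 4.06% of genes. At an unadjusted p under 0.05, 5 of 5 were higher, against 5.06% of genes. The exact two-sided permutation p-values, 5 mice against 5, were 0.0317, 0.0238, 0.0397, 0.0159 and 0.0238, with a smallest possible p of 0.00794. Without mouse 18, 1 gene (Alas2) was called, against 3.32% of genes, and in a fit of these 10 libraries alone 1 gene (Hbb-bt, limma adjusted p = 0.0485), against 5.84% of genes. The limma adjusted p of Hbb-bt ran from 0.0198 to 0.286 over the alternatives, without the fits that left out a mouse with the neural retina score.

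In control choroids the log2 difference by diet was 0.60 (SE 0.61) for Hba-a1, 0.91 (SE 0.68) for Hba-a2, 0.70 (SE 0.63) for Hbb-bs, 0.81 (SE 0.68) for Hbb-bt and 0.36 (SE 0.75) for Alas2. Leaving out a mouse gave 0.21 to 1.09 for Hba-a1, 0.45 to 1.49 for Hba-a2, 0.30 to 1.2435 for Hbb-bs, 0.26 to 1.33 for Hbb-bt and -0.077 to 0.78 for Alas2, with the highest values without mouse 1 and the lowest without mouse 3 or 15. The limma adjusted p-values were 0.620 to 0.896. Of the 5 genes 0 were called, against 3.75% of genes, and 0 had an unadjusted p under 0.05, against 13.8% of genes. The genotypes were not shown to differ in their response. The interaction, the diet difference in Tgfbr2ΔEC minus that in control choroids, was 0.79 to 1.98 with limma adjusted p of 0.815 to 0.993, 0 of 5 were called against 0% of genes, and 0 of 5 had an unadjusted p under 0.05 against 6.57% of genes.

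**Figure D4:**
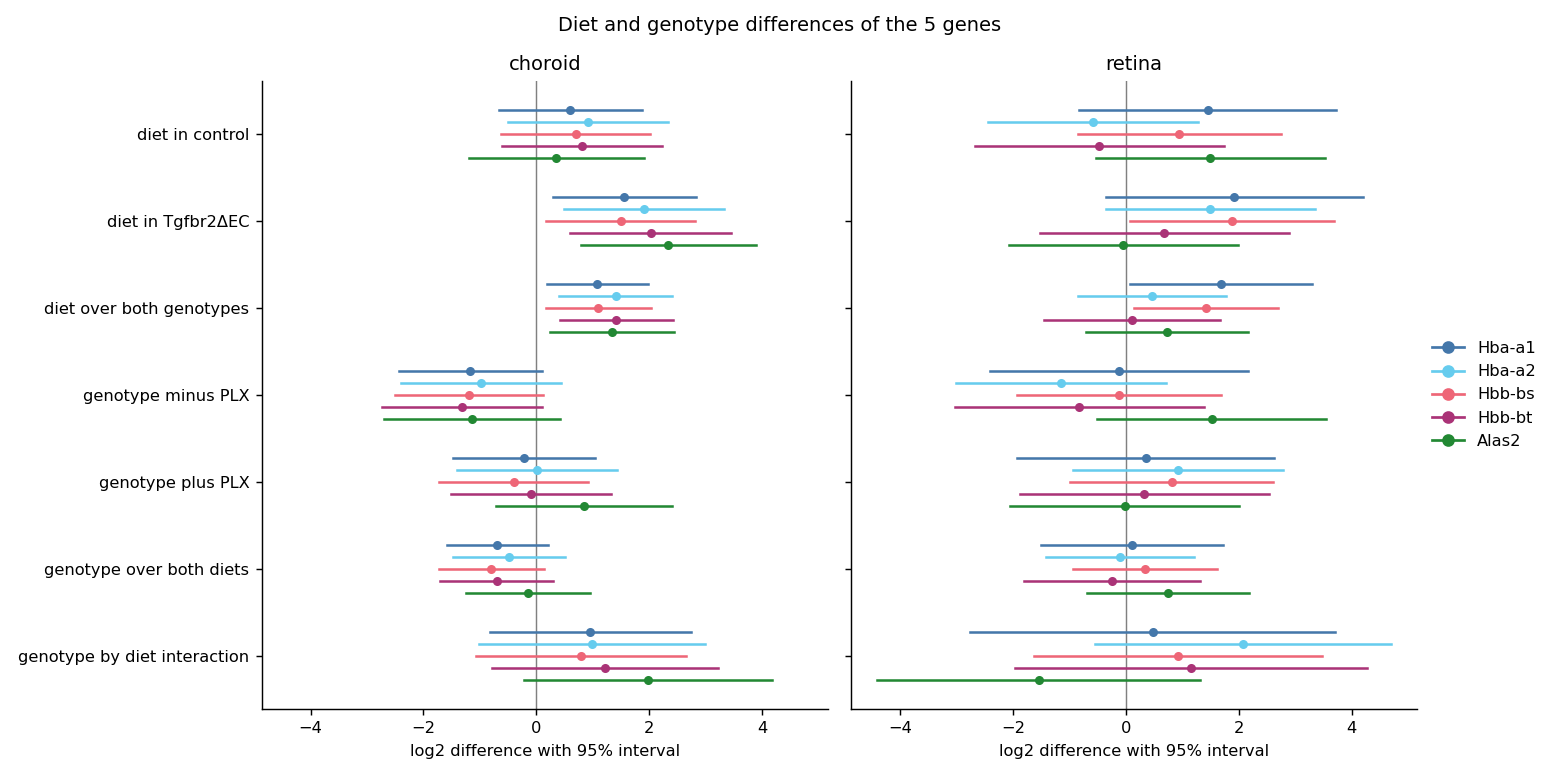
Log2 differences of normalized count + 1 (x axis) with 95% intervals from limma for the 5 genes, coloured by gene, in the diet, genotype and interaction comparisons (y axis) of choroid (left) and retina (right). In choroid the intervals of the diet comparison in Tgfbr2ΔEC mice and over both genotypes lie above 0, at 0.18 and 0.16 at the lowest, and none of the genes passed the adjusted test.

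The share of neural retina in the choroids moved with these groups. The neural retina score, the mean log2 value of 10 photoreceptor genes such as Sag, was 11.4 to 12.9 in Tgfbr2ΔEC – PLX choroids and 9.02 to 10.3 in Tgfbr2ΔEC + PLX choroids, without overlap. Control choroids scored 7.75 to 10.7 without PLX and 7.69 to 12.9 with it, and mouse 15 was the highest of the latter. The summed counts of the 10 genes were 48630 to 138483 in Tgfbr2ΔEC – PLX, 8262 to 22202 in Tgfbr2ΔEC + PLX, 4014 to 28320 in control – PLX and 4495 to 134533 in control + PLX choroids, and none of the 10 was at the floor in every choroid. In the likeness measure described below, taken within groups, all 10 correlated with the globins across choroids at r of 0.45 to 0.58, where the central 95% of 17592 genes lay at -0.48 to 0.49.

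With this score as a covariate, the kind of term the study's own model held, the diet difference passed the test. Over both genotypes it was 1.52 for Hba-a1, 1.89 for Hba-a2, 1.55 for Hbb-bs, 1.92 for Hbb-bt and 1.90 for Alas2, with limma adjusted p of 0.0321, 0.0180, 0.0393, 0.0136 and 0.0295. All 5 genes were called higher, against 1.27% of the genes tested. Among Tgfbr2ΔEC mice 4 of 5 were called higher, against 0.135% of genes, at 2.49 (Hba-a1), 2.91 (Hba-a2), 3.10 (Hbb-bt) and 3.50 (Alas2) with limma adjusted p of 0.0458, 0.0376, 0.0198 and 0.0160, and Hbb-bs stood at 2.45 with an adjusted p of 0.0727. Since the score did not overlap between the Tgfbr2ΔEC groups, the fitted difference there rests on the slope of globin on the score.

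These calls depended on single mice, in fits that were added after the data had been seen. With the score, over both genotypes, 5 of 5 genes were called in 11 of 20 fits that each left out 1 mouse. The count was 4 without mouse 7, 9, 17 or 20, 2 without mouse 2, 8 or 19, and 0 without mouse 3 or 15. Among Tgfbr2ΔEC mice it was 5 without mouse 1, 4, 6 or 18, 4 without mouse 11, 3 without mouse 2, 12, 13 or 14 and 2 without mouse 3, 5, 7, 9, 10, 16, 17 or 20. It was 0 without mouse 8, 15 or 19. The share of all genes called in either direction in these fits was 3.32 to 7.43% over both genotypes and 1.73 to 2.54% among Tgfbr2ΔEC mice. The part of neural retina, and of any blood it brought with it, in the diet difference was not tested further.

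**Figure D5:**
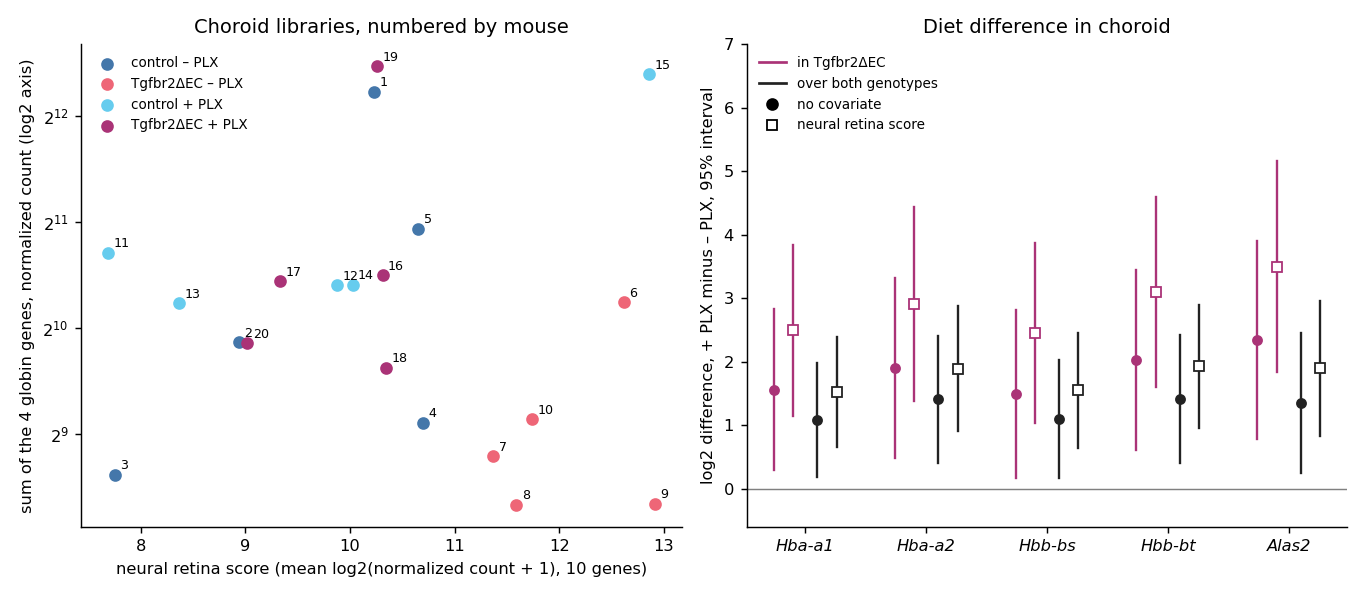
Left, the sum of the 4 globins (y axis, normalized count, log2 scale) against the neural retina score (x axis, mean log2 of 10 genes) in the 20 choroids, numbered by mouse and coloured by group. Right, the log2 difference by diet in choroid (y axis) with its 95% interval for each gene (x axis), without (circles) and with (squares) the score as a covariate, in Tgfbr2ΔEC mice (purple) and over both genotypes (black). Tgfbr2ΔEC – PLX choroids score 11.4 to 12.9, mouse 15 (12.9) is high for both measures, and each square lies above its circle.

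The genotype comparisons addressed whether loss of endothelial TGFβ signaling changed the blood transcripts of the lesioned choroid. Without PLX, the log2 difference of Tgfbr2ΔEC minus control was -1.17 for Hba-a1, -0.98 for Hba-a2, -1.19 for Hbb-bs, -1.31 for Hbb-bt and -1.14 for Alas2, with SE of 0.61 to 0.75. The limma adjusted p-values were 0.602 to 0.763 and the exact two-sided permutation p-values 0.143 to 0.294. So 0 of 5 were called, against 0.00423% of genes, and 0 had an unadjusted p under 0.05, against 9.25% of genes. The means of Hba-a1 were 773 ± 774 in control and 264 ± 158 in Tgfbr2ΔEC choroids (SD, n = 5 each), and the groups overlapped. The difference of Hba-a1 ran from -1.51 to -0.68 over fits that left out a mouse, the smallest size being without mouse 1. With the neural retina score it was -2.19 for Hba-a1, -2.07 for Hba-a2, -2.23 for Hbb-bs, -2.48 for Hbb-bt and -2.40 for Alas2, each with a limma adjusted p of 0.999. The neural retina markers were higher in these Tgfbr2ΔEC – PLX than in control – PLX choroids for 10 of 10 at an unadjusted p under 0.05, against 6.99% of genes, with a median log2 difference of 2.48, and 0 of 10 were called. Their part in the globin difference was not tested further. The neural retina score did not overlap between these groups, at 7.75 to 10.7 in control – PLX and 11.4 to 12.9 in Tgfbr2ΔEC – PLX choroids. The genotype differences fitted with the score therefore rest on the slope of globin on the score. These mice are the same – PLX groups that enter the diet comparisons. The sexes were uneven between the groups. The X-inactivation transcript exceeded the mean of 4 Y-linked genes in 2 of 5 control – PLX, 3 of 5 Tgfbr2ΔEC – PLX, 2 of 5 control + PLX and 4 of 5 Tgfbr2ΔEC + PLX mice, with the same counts in choroid and retina. With a sex score as covariate 0 of 5 genes were called in every comparison of genotype or diet. By diet in choroid, those fits called 6.71% of all genes over both genotypes and 4.2% in Tgfbr2ΔEC mice. The genotype difference of Hba-a1 without PLX was -1.18 with that score.

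With PLX, the differences by genotype ran from -0.40 (Hbb-bs) to 0.84 (Alas2). Here 0 of 5 were called, against 0.00423% of genes, and 0 had an unadjusted p under 0.05, against 3.76% of genes. Over both diets they ran from -0.80 (Hbb-bs) to -0.15 (Alas2), with 0 of 5 called, against 0.00847% of genes, and 0 at an unadjusted p under 0.05, against 6.6% of genes. The 95% interval for Hbb-bs over both diets, -1.73 to 0.13, left room for a difference of that size.

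In retina the same genes were low and spread widely. Hbb-bs, above 0 in every retina, was at 32.2, 129, 43.5, 23.9 and 5.64 in control – PLX and at 83.1, 29.7, 43.2, 12.4 and 12.7 in Tgfbr2ΔEC – PLX mice. With PLX it was at 62.2, 58.7, 4.45, 137 and 299 in control and at 59.2, 283, 115, 151 and 46.0 in Tgfbr2ΔEC mice. The highest retinas were those of mice 15 and 17, and all groups overlapped. The means were 46.8 ± 47.8, 36.2 ± 29.2, 112 ± 114 and 131 ± 94.9 (SD, n = 5 each). Hba-a1 ran from 0 to 125 in control – PLX, from 6.04 to 85.6 in Tgfbr2ΔEC – PLX, from 6.34 to 280 in control + PLX and from 33.3 to 225 in Tgfbr2ΔEC + PLX retinas. Alas2 reached 15.7 in mouse 6, 25.3 in mouse 14 and 30.6 in mouse 17 and was at most 6.72 in the other 17 retinas.

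By diet over both genotypes, the log2 difference in retina was 1.69 (SE 0.78) for Hba-a1, 0.46 (SE 0.63) for Hba-a2, 1.41 (SE 0.61) for Hbb-bs, 0.11 (SE 0.75) for Hbb-bt and 0.73 (SE 0.69) for Alas2. The direction of Hbb-bt turned under other settings, to -0.028 with a pseudocount of 0.5 and -0.10 with the neural retina score. The limma adjusted p-values were 0.681 to 1.00, so 0 of 5 were called, against 1.09% of genes. At an unadjusted p under 0.05, 2 of 5 (Hba-a1 and Hbb-bs) were higher, against 2.34% of genes. The exact two-sided permutation p-values of these were 0.0601 and 0.0537. The pigment epithelium markers in retina were higher with PLX for 2 of 6 at an unadjusted p under 0.05, with 0 of 6 called and a median log2 difference of 0.48. Their summed counts were 6036 to 17300 in control – PLX, 9642 to 15033 in Tgfbr2ΔEC – PLX, 7428 to 15504 in control + PLX and 13035 to 16940 in Tgfbr2ΔEC + PLX retinas. Within groups, 5 of these markers correlated with the retinal globins at r of 0.30 to 0.53, as a description over 20 libraries, where the central 95% of 17176 genes lay at -0.45 to 0.48, and their part in the difference was not tested.

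Within genotypes, 0 of 5 were called by diet in control retinas, against 0.736% of genes, and 0 had an unadjusted p under 0.05, against 5.74% of genes. In Tgfbr2ΔEC retinas 0 of 5 were called, against 0.516% of genes, and 1 (Hbb-bs, 1.88) was higher at an unadjusted p under 0.05, against 1.39% of genes. The exact two-sided permutation p-values there, unadjusted, were 0.0476 for Hba-a1 (1.92), 0.0476 for Hba-a2 (1.498), 0.0317 for Hbb-bs, 0.357 for Hbb-bt (0.68) and 1 for Alas2 (-0.045). By genotype, 0 of 5 were called without PLX, with PLX and over both diets, each against 0% of genes. The count at an unadjusted p under 0.05 was 0 in each, against 3.26%, 2.71% and 3.78% of genes. For the interaction in retina it was likewise 0 of 5 called against 0% of genes and 0 at an unadjusted p under 0.05 against 2.44%.

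The choroid and the retina of a mouse were not shown to vary together. For Hbb-bs, Pearson r over 20 mice was 0.24 (permutation p = 0.334) and Spearman rho 0.34 (permutation p = 0.169) on the log2 scale after group means were removed, and r was 0.28 without mice 1 and 19, the farthest from the median. Leaving out each mouse in turn gave r of 0.09 to 0.36. This was the relation tested, and the other genes had r of 0.14 (Hba-a1), 0.34 (Hba-a2), 0.27 (Hbb-bt) and -0.01 (Alas2).

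Other genes of the red cell ranged widely in level. Among the red cell membrane genes, Kel (the Kell protein) was at 0 in every choroid, and in retina Slc4a1 (band 3, the anion exchanger) and Rhag were at or under 3 reads in every library. In choroid Rhag was at 0 to 13.2 and its relative Rhd at 6.23 to 37.6. Gypc (glycophorin C) was at 778 to 1361 and Ermap at 596 to 1302 in choroid, against 3.97 to 37.1 and 3.83 to 199 in retina. These 4 and Tmod1 were called higher in choroid, and Sptb, Dmtn, Epb42, Epb41, Add2 and Ank1 lower, of 13 tested. In choroid Slc4a1 reached 35.1 in 1 Tgfbr2ΔEC + PLX mouse and at most 3.30 in the others. Of 11 other globin genes matched, the embryonic or minor genes Hbb-bh0, Hbb-bh1, Hbb-bh2, Hbb-bh3 and Hbq1a were at 0 in all choroids, and the embryonic alpha-like Hba-x was above 0 in 1. The embryonic beta-like Hbb-y was at 0 in 5 choroids and reached 6.39 in the others, with a median of 2.85 over all 20, and was above 0 in 2 retinas. Of the erythroid factors, Gata1 at 0 to 9.29, Klf1 at 1.13 to 17.3 and Nfe2 at 3.94 to 20.995 normalized counts were low in choroid, while Tal1 (106 to 266), Lmo2 (517 to 1375), Zfpm1 (363 to 1619) and Ldb1 (2829 to 4057) were not. Genes of the same lists that are not particular to red cells were higher, such as Fech, the last enzyme of haem synthesis, at group means of 1994 to 2250 in choroid.

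Between tissues, the red cell lists held genes of both directions, and their counts are read against 40.8% of all genes tested that were higher and 41.1% that were lower in choroid. With 82% of genes called, a list with most members called is near the share over all genes. Red cell membrane genes were higher in choroid for 5 and lower for 6 of 13 tested, haem synthesis genes for 4 and 5 of 11, and other red cell genes for 6 and 7 of 17. Erythroid transcription factors were higher in choroid for 5 of 7 tested, among them Tal1 and Lmo2, which endothelial cells also express. Other globins were higher for 3 (Mb, the muscle oxygen store, Cygb and the embryonic Hbb-y) and lower for 1 (Ngb, the neuronal globin) of 4 tested. Haem clearance genes were higher in choroid in 9 of 9. The list medians were 0.03 for red cell membrane, -0.05 for haem synthesis and 3.15 for haem clearance on the log2 scale, beside -0.01 over all genes.

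By diet in choroid over both genotypes, 5 of 9 genes that clear haemoglobin and haem fell and 0 rose (limma, adjusted p at or under 0.05), against 5.06% of all genes tested that fell. The other 4 (Hp, Hpx, Slc48a1 and Lrp1) and the globins did not pass the test. Cd163, the macrophage receptor for haemoglobin bound to haptoglobin, fell by 5.63 on the log2 scale, Slc40a1, the iron exporter ferroportin, by 1.71, Hmox1, which opens the haem ring, by 1.20, and the biliverdin reductases Blvrb by 0.79 and Blvra by 0.54. Mean Hmox1 was 2892 ± 717 in control – PLX, 2990 ± 1046 in Tgfbr2ΔEC – PLX, 1255 ± 307 in control + PLX and 1283 ± 309 in Tgfbr2ΔEC + PLX choroids (SD, n = 5 each). Mean Cd163 was 1008 ± 353, 851 ± 287, 26.6 ± 16.9 and 13.4 ± 5.48 in the same order. The – PLX and + PLX groups did not overlap for either gene, and the share of all genes without overlap between them was not computed. The same count, 5 of 9, fell in Tgfbr2ΔEC mice, against 3.5% of genes. Cd163 is also a phagocyte marker, and 9 of 10 phagocyte markers fell, with summed counts of 27786 to 34582 in – PLX and 6794 to 8889 in + PLX choroids.

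The other lists held few genes called by diet in choroid, and the share of all genes called was 2.07% higher and 5.06% lower. Of the other globins 0 of 4 and of the red cell membrane genes 0 of 12 were called. In haem synthesis Urod rose by 0.29 and Alas1, the form of other cells, fell by 0.21 among 11 tested. Lmo2 fell by 0.64 among 8 erythroid factors, and Epor, the erythropoietin receptor, by 1.06 with Mkrn1 among 16 other red cell genes. Among markers of the other cells of blood, platelet markers fell for 1 of 7 (Pf4, by 3.47) and neutrophil markers for 1 of 7 (Mmp8, by 1.49). Lymphocyte markers fell for 1 of 8 (Cd79b), and 0 markers of these lists rose. The cells that Pf4, Mmp8 and Cd79b came from were not tested, and 9 of 10 phagocyte markers fell in the same comparison. Of the neural retina markers 0 of 10 were called over both genotypes, with a median difference of -1.10, and in Tgfbr2ΔEC mice 1 of 10 (Rom1, at -0.92) fell, against 3.5% of genes, with a median of -2.19, and 10 of 10 were lower at an unadjusted p under 0.05, against 10.3% of genes. Endothelium markers rose for 3 of 7 (Pecam1, Tie1 and Cldn5), and their part in the globin values was not tested. In retina, 9 of 10 phagocyte markers and 1 of 4 platelet markers (Pf4) fell by diet, against 1.08% of genes, and 0 of 9 haem clearance genes were called. In the genotype comparisons 0 genes of any list were called, where at most 0.00847% of all genes were called in choroid and 0% in retina.

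The genes whose pattern was most like the globins were ranked in each tissue by Pearson r with the mean of the 4 globins, over 20 mice, on the log2 scale after group means were removed. In choroid, among 17592 genes, Clca1 (0.85), Dtx1 (0.83), Ahi1 (0.81), Mrps31 (0.76) and Castor2 (0.75) led, followed by Syce2, Ccdc92, Pcgf6, Gm5687 and Vax2 (0.73). Alas2 would stand at rank 12 with 0.72. In retina, among 17176 genes, Arc (0.77), Pou4f2 (0.73) and Podn (0.72) led, followed by Gm57504, Gm5242, Tmem50b, Serinc2, Cdk16, Cdpf1 and 5730414N17Rik (0.68), and Alas2 stood at rank 135 with 0.56. None of these 20 genes was in a red cell or blood cell list, and the 2 tissues shared 0 of them.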

How the data were processed

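Choroid and retina of 20 mice were sequenced. Per the labels and the study's methods, the authors quantified polyadenylated, stranded, single 50-base reads with Salmon 1.10.1 on GRCm39 (GENCODE vM29), imported them with tximport, normalized them with DESeq2 1.36.0 and deposited the signal per gene, called normalized counts here. These are not whole numbers. Only 45.9 to 72.4% of the low values of a library came within 0.1 of a multiple of 1 read, and a test on counts was therefore not run. All 40 columns were matched to a sample and 0 were not.

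Gene identifiers were matched to GENCODE vM39 of GRCm39 (53700 matched, 607 did not). limma 3.58.1 in R 4.3.3 was fitted to log2(normalized count + 1) with its trended variance prior and without covariates, to genes with a mean of at least 1: the 4 groups of a tissue together, or all 40 libraries for choroid against retina. An adjusted p (Benjamini-Hochberg over all genes tested) at or under 0.05 was called. The procedure was tested on simulated data. Single genes were also compared by exact permutation of mice, and correlations by 100000 resamples. Python 3.11.15, numpy 2.4.6, pandas 2.3.3, scipy 1.17.1 and matplotlib 3.10.9 were used. The authors' covariates, sex and a neuronal share, are not in the labels, and marker scores stood in for them as alternatives.

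The 5 genes and the gene lists were chosen with earlier results of these data known. Genes named are the 5 members, at most 4 of a list by mean or p beside those called, and the 10 genes most like the globins in each tissue. List genes at the floor, and Hbb-y, Rom1, the red cell membrane genes and the erythroid factors, were named after their values were seen. Some genes of the lists are not reported here. Of the lists, 3 symbols found no match (Hbb-b1, Hbb-b2 and Ahsp). Alternatives were pseudocounts of 0.5 and 5, no filter or a mean of at least 10, other scalings, a robust variance, only the libraries compared, marker scores, the mouse as a replicate block (both tissues of a mouse carry the same number in the labels) and leaving out each mouse. The mice were separate animals. A single read of 50 bases cannot separate the copies of a globin pair over most of their length.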

Additional observations from a re-analysis of the deposited data

Results flagged for a closer look

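In 16 of 40 groups of 5 libraries (5 genes, 4 groups, both tissues), the highest value stood apart from the others, by the gap to its nearest neighbour as a share of the group's range. Chance flags about 1 in 20 groups for values spread normally, but these counts are skewed to high values, so the number of flags is not compared with that rate. On the log2(value + 1) scale, a check added after the data had been seen, 5 of 40 groups stood apart, all by their highest value. The 5 genes share libraries, so a mouse with much globin is counted several times. All 16 were the highest values of their groups.

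In choroid, mouse 15 (control + PLX) stood apart for Hba-a1 (0.862 of the range), Hba-a2 (0.915), Hbb-bs (0.927) and Alas2 (0.835). Its Hbb-bs was 2131, next to 605 in the nearest library. Mouse 19 (Tgfbr2ΔEC + PLX) stood apart for all 4 globins, with gaps of 0.854 for Hba-a1, 0.826 for Hba-a2, 0.896 for Hbb-bs and 0.743 for Hbb-bt. Mouse 6 (Tgfbr2ΔEC – PLX) stood apart for Hba-a2 (0.751), Hbb-bs (0.727) and Alas2 (0.828), and mouse 1 (control – PLX) for Hba-a2 (0.717).

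In retina, mouse 6 stood apart for Hba-a2 (0.919), with 25.6 next to 5.80, and mouse 17 (Tgfbr2ΔEC + PLX) for Hba-a2 (0.732) and Alas2 (0.864). Mouse 14 (control + PLX) stood apart for Alas2 (0.849), with 25.3 next to 3.82. Mouse 6 was the 1 animal that stood apart in both tissues. The causes were not tested.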

How the results depend on the processing

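The 5 genes were called higher in choroid than in retina under every alternative, except that a mean of at least 10 left Alas2 untested. With the mouse as a replicate block, which pairs the tissues of a mouse, 5 of 5 were called, in a fit that called 19855 genes. The limma adjusted p-values were 1.81e-07 (Hba-a1), 3.99e-08 (Hba-a2), 2.39e-08 (Hbb-bs), 2.95e-07 (Hbb-bt) and 0.000927 (Alas2). The block changed no call, and within a tissue each mouse gave 1 library, so no block applied.

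The choroid diet comparison depended on the model. Shares of all genes called in the same fits are given in brackets. Over both genotypes the count of the 5 genes called was 0 (7.13%), and 5 with the neural retina score (5.73%). It was 0 to 4 over fits that left out a mouse (5.97 to 9.0%), with 4 without mouse 1 and 1 without mouse 6. In Tgfbr2ΔEC mice it was 0 (4.06%), but 4 with the score (2.27%) and 1 with only the 10 libraries compared (5.84%). Over leave-outs it was 0 to 1 there (2.76 to 5.96%), with 1 without mouse 18. In the fit with the score, leaving out a mouse gave 0 to 5 in both. The shares were then 3.32 to 7.43% over both genotypes and 1.73 to 2.54% in Tgfbr2ΔEC mice. The cause was not tested. The limma adjusted p of Hbb-bt over both genotypes ran from 0.0136 to 0.161, without the fits that left out a mouse with the score.

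Alas2 by diet in control choroids ranged from -0.077 to 0.78 over leave-outs. Hbb-bt by diet in retina was -0.028 with a pseudocount of 0.5, -0.10 with the neural retina score and -0.28 to 0.51 over leave-outs. In 8 comparisons given as ranges, 18 of 40 values changed sign under at least 1 alternative, at sizes up to 0.70, and 0 were called. Counts in these, and in the other comparisons by genotype or in retina, stayed at 0 of 5. Alas2 is limited by depth, at or under 3 reads in 12 of 20 retinas.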
